A study of Mus musculus with 18 samples.

Results

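Fragments of the cytosolic leucine tRNAs were followed in mouse liver by 2 small RNA sequencing methods and under 2 diets. The members are the rows of the deposited table whose names start with mature-tRNA-Leu-, which gives 5 rows of 1234 in all and 5 of the 51 cytosolic tRNA rows. Each row pools the reads of all tRNA genes with 1 anticodon: mature-tRNA-Leu-CAG, mature-tRNA-Leu-CAA, mature-tRNA-Leu-TAA, mature-tRNA-Leu-AAG and mature-tRNA-Leu-TAG. Values are RPM, reads of a row scaled to a common library total, so a level is a share of the reads of its library. The mice were male C57BL/6 mice, 8 weeks old when feeding began. Of these, 5 (numbered 1 to 5) ate a diet with 0.02% cholesterol, here LCD, and 4 (numbered 15 to 18) a diet with 0.5% cholesterol, here HCD. The series text and the study's methods give 4 weeks of feeding before the livers were taken, while the growth protocol gives 9 weeks and a time entry 8 weeks. Liver RNA of 15 to 50 nt from each mouse went into a PANDORA-seq library and a traditional-seq library, giving 18 libraries. In PANDORA-seq the RNA was treated with T4PNK and AlkB before adapters were ligated, and in traditional-seq neither enzyme was used.

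Leucine tRNAs pair with the 6 leucine codons through these 5 anticodons: CAG reads CUG, TAG reads CUA, AAG reads CUU and, once its first base is converted to inosine, CUC, CAA reads UUG and TAA reads UUA. Like the serine and selenocysteine tRNAs, they carry a long variable arm, an extra stem between the anticodon arm and the T arm. When tRNAs are cut, the pieces can carry a phosphate at the 3' end, which stops adapter ligation, and base methylations, which stop the reverse transcriptase. T4PNK mends the ends and AlkB removes part of the methyl groups, which makes such pieces readable.

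The members come from several gene copies each. RefSeq (GRCm38) lists 25 cytosolic leucine tRNA genes on 9 chromosomes: 10 with the anticodon CAG, 5 with AAG, 4 with CAA, and 3 each with TAA and TAG. The genes are 82 bases long for AAG and TAG, 83 for CAG and TAA, and 105 to 107 for CAA, whose genes hold an intron. Of the 10 CAG genes, 5 lie on chromosome 1 between bases 171038614 and 171101920, outside annotated genes, and 2 lie in introns of Naaladl2 and Sgcz. The sequences below come from RefSeq promoter windows and from an exon of a noncoding transcript, B230208H11Rik, read at the coordinates of the tRNA genes. They show the arm that sets the family apart and how far 2 members differ, with the anticodon and the variable region in capitals. The first is n-TLaag4 (chr7:120917528-120917598, plus strand), positions 12 to 82 of its 82 bases. The second is n-TLtaa3 (chr10:12922574-12922653, minus strand), positions 1 to 80 of 83. The third is the first 17 bases of n-TLcaa3 (chr11:58302564-58302580, minus strand).
n-TLaag4: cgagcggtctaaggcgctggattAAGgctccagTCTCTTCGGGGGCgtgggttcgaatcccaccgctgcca
n-TLtaa3: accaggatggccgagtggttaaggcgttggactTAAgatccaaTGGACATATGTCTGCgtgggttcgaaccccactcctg
n-TLcaa3: gtcaggatggccgagtg
The variable region was 13 bases in n-TLaag4 and 15 bases in n-TLtaa3, and its letters differed between them. The longest run that these 2 sequences share is 13 bases, gcgtgggttcgaa, which spans the start of the T arm. It is shorter than the shortest RNA cut from the gel. The mapping allowed 1 mismatch, however, so a read that runs past this stretch over a single differing base can still fit both genes. Over the first 17 bases, n-TLcaa3 and n-TLtaa3 differed at the first 2 bases and shared the 15 bases that follow. A read that starts at the first base thus has 2 mismatches to the other gene, more than the mapping allowed. Short reads that start after the first base can fit both.

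All 5 members were read above 0 in each of the 18 libraries. The depth, worked out by taking the commonest value under 3 RPM as 1 read, was 1934330 to 25488322 reads. So 1 read was worth 0.0392 to 0.517 RPM. In reads, mature-tRNA-Leu-CAG stood at 326 to 24180, mature-tRNA-Leu-CAA at 163 to 10683, mature-tRNA-Leu-AAG at 65.1 to 4355, mature-tRNA-Leu-TAG at 39.9 to 5266 and mature-tRNA-Leu-TAA at 13.8 to 1952. Mature-tRNA-Leu-TAA therefore rests on the fewest reads. Of the 90 values of the family, only 4 lay within 0.02 of a whole read, so reads that fit several rows appear to have been divided between them. A level then can include reads that also fit another row, and these values do not show which row. The hepatocyte miRNAs made up 62.1 to 92.5% of the miRNA reads of each library, which fits the labelled tissue, while the erythroid miRNAs were at 0.00168% or less.

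Mature-tRNA-Leu-CAG, the reader of the commonest leucine codon, was the most abundant member by group mean. Per 100 bases of gene it stood at 1926 ± 320 RPM (SD, n = 5) in LCD PANDORA-seq, against 834 ± 146 for mature-tRNA-Leu-CAA, 265 ± 98.2 for mature-tRNA-Leu-AAG, 167 ± 63.6 for mature-tRNA-Leu-TAG and 114 ± 33.8 for mature-tRNA-Leu-TAA. The CAA value is set low by the intron, which is counted in the gene length. The ranges of CAG and CAA did not overlap in this group, nor did those of CAA and AAG, whereas AAG and TAG, and TAG and TAA, overlapped. Mean levels followed the same order in the other 3 groups. In the traditional-seq library of HCD mouse 16, however, AAG (126 RPM) stood above CAG (121 RPM). In LCD traditional-seq the levels per 100 bases ran from 311 ± 108 RPM for CAG to 11.6 ± 2.28 for TAA (SD, n = 5). In HCD PANDORA-seq they ran from 1579 ± 660 to 106 ± 83.9 RPM (SD, n = 4), and there neighbours in the order overlapped at each step.

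**Figure D1:**
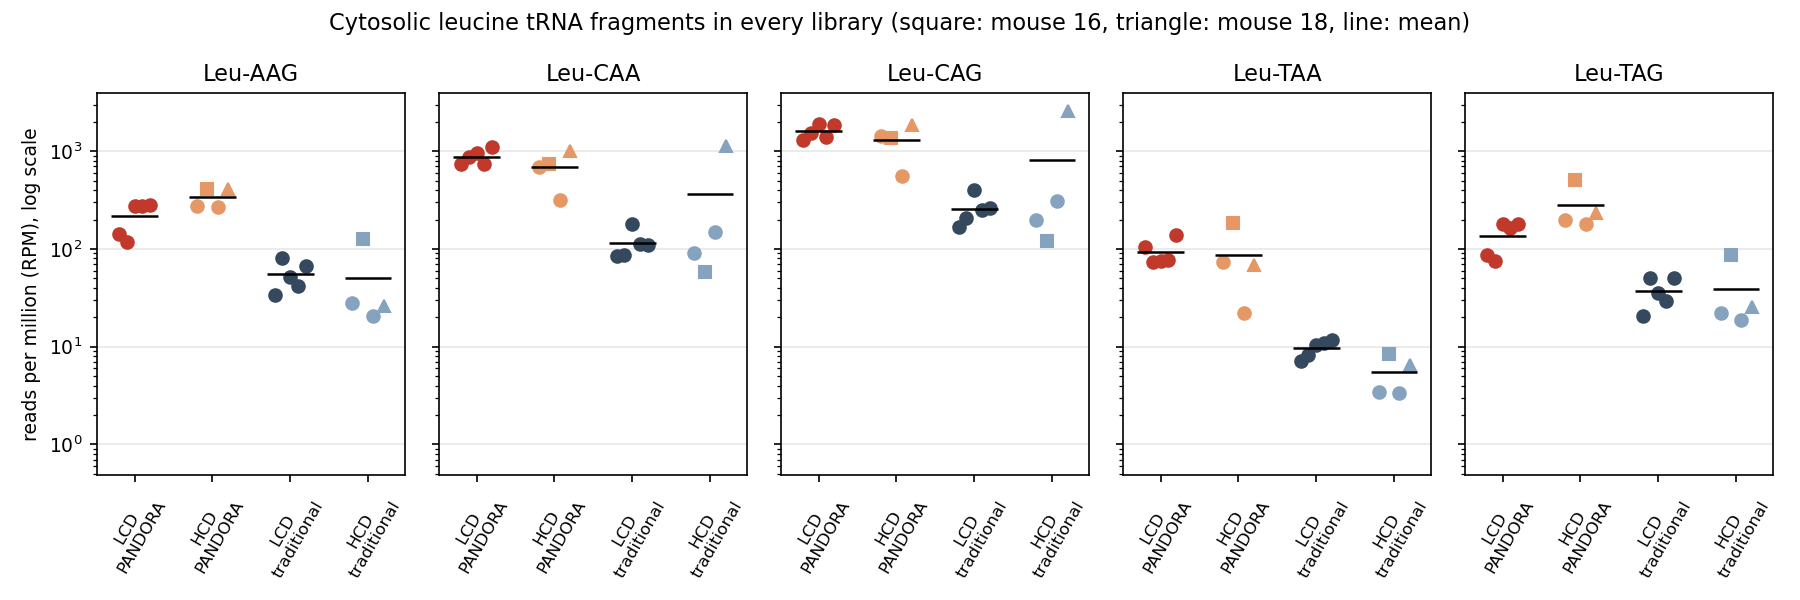
Level of each cytosolic leucine tRNA row in RPM (log scale) in each of the 18 libraries, by diet and method. Points are libraries, lines are group means, and mice 16 and 18 have their own symbols; for CAA and CAG the triangle of HCD traditional-seq (1146 and 2595 RPM) stands far above the other 3 libraries of its group, and for AAG and TAG the square does (126 and 87.5 RPM).

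The first comparison asks how the level of each leucine fragment, as a share of its library, differs with the enzymes. In LCD mice all 5 members were higher in PANDORA-seq with RPM as deposited, where 21.8% of the 325 rows tested were called higher (limma, Benjamini-Hochberg adjusted p under 0.05). Mature-tRNA-Leu-CAG stood at 1304, 1523, 1906, 1415 and 1845 RPM in the PANDORA-seq libraries of mice 1 to 5. In the traditional-seq libraries of the same mice it stood at 168, 206, 403, 249 and 263 RPM. Each PANDORA-seq value was above each traditional-seq value, by a log2 fold change of 2.67 (SE 0.29, adjusted p = 1.49e-07). Of the 325 rows, 300 were called in either direction here. The share of all rows without overlap between the methods was not counted in either diet.

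Mature-tRNA-Leu-CAA, which decodes UUG and whose gene holds an intron, moved in the same way. Its levels were 747, 867, 961, 738 and 1108 RPM in PANDORA-seq. They were 84.3, 87.3, 179, 112 and 111 RPM in traditional-seq. The methods did not overlap, and the log2 fold change was 2.97 (SE 0.29, adjusted p = 4.67e-08). Mature-tRNA-Leu-TAA, the rarest member and the reader of UUA, had a fold within its error of that of CAA. It stood at 106, 72.9, 76.0, 77.8 and 138 RPM in PANDORA-seq and at 7.12, 8.25, 10.3, 10.8 and 11.7 RPM in traditional-seq. Again no values overlapped, with a log2 fold change of 3.14 (SE 0.31, adjusted p = 4.73e-08).

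The smaller folds belonged to the anticodons AAG and TAG. Mature-tRNA-Leu-AAG stood at 143, 117, 275, 273 and 280 RPM in PANDORA-seq and at 33.6, 81.0, 51.7, 41.9 and 66.9 RPM in traditional-seq. Mice 1 and 2 were low in PANDORA-seq and mouse 2 was the highest in traditional-seq, so that the fold within mouse 2 was 1.44 while that within mouse 4 was 6.52. The log2 fold change was 1.94 (SE 0.36, adjusted p = 6.99e-05). Mature-tRNA-Leu-TAG repeated this order of mice, at 85.9, 75.0, 179, 166 and 180 RPM in PANDORA-seq and 20.6, 50.3, 35.5, 29.7 and 50.1 RPM in traditional-seq. Its log2 fold change was 1.83 (SE 0.37, adjusted p = 1.61e-04), with no overlap between the methods.

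These changes were close to those of other cytosolic tRNAs. In LCD mice, 43 of the 51 cytosolic tRNA rows rose and 3 fell, with a median log2 fold change of 2.42 beside 2.67 for the 5 leucine rows. The 5 cytosolic serine rows, whose tRNAs also have a long variable arm, all rose, with a median of 2.65. The median over the 325 rows tested was -2.63, since 218 of the 241 miRNA rows fell. The size of the leucine folds depended on the scaling. In LCD mice they ran from 3.21 (TAG) to 4.45 (TAA) when scaled by the trimmed mean of M-values. With the miRNA reads of each library set to the same sum, they ran from 6.32 (TAG) to 7.59 (CAA). With the cytosolic tRNA reads of each library set to the same sum, all 5 leucine changes stayed above 0 in LCD mice but 3 were called, where 11.4% of the 325 rows were called higher, and mature-tRNA-Leu-AAG (0.44, adjusted p = 0.141) and mature-tRNA-Leu-TAG (0.34, adjusted p = 0.270) were not. The mitochondrial leucine tRNAs, which lack the long arm, gave 1 rise and 1 fall, with log2 fold changes from -0.85 to 1.36.

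In HCD mice all 5 members were called higher in PANDORA-seq with RPM as deposited, where 18.3% of the 312 rows tested were called higher. So were 39 of the 51 cytosolic tRNA rows, with a median log2 fold change of 2.75 beside 2.99 for the leucine rows. Of the 5 serine rows, 4 were called higher. With the miRNA reads set to the same sum, the leucine values stayed above 0, from 4.67 (CAG) to 6.08 (TAA). This direction turned for mature-tRNA-Leu-CAA (-1.31), mature-tRNA-Leu-CAG (-1.50) and mature-tRNA-Leu-TAG (-0.14) when the cytosolic tRNA reads were set to the same sum. At that scaling no member was called higher, with mature-tRNA-Leu-TAA at 0.56 (adjusted p = 0.342) and mature-tRNA-Leu-AAG at 0.00 (adjusted p = 0.993), and CAG was called lower in PANDORA-seq (adjusted p = 0.0490), as were 87.2% of the 312 rows. The values that follow are of RPM as deposited. Mature-tRNA-Leu-TAA stood at 73.3, 186, 22.4 and 68.7 RPM in the PANDORA-seq libraries of mice 15 to 18 and at 3.42, 8.46, 3.36 and 6.56 RPM in traditional-seq. The methods did not overlap, and its log2 fold change was 3.50 (SE 0.62, adjusted p = 5.37e-06).

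Mature-tRNA-Leu-AAG stood at 276, 416, 270 and 416 RPM in PANDORA-seq and at 28.0, 126, 20.4 and 26.3 RPM in traditional-seq. Mouse 16 was the high library in traditional-seq, yet it stayed below every PANDORA-seq library, and the log2 fold change was 3.14 (SE 0.55, adjusted p = 4.93e-06). Mature-tRNA-Leu-TAG showed mouse 16 high by both methods, with 197, 503, 182 and 235 RPM in PANDORA-seq and 22.0, 87.5, 18.9 and 25.8 RPM in traditional-seq. Its log2 fold change was 2.99 (SE 0.56, adjusted p = 1.21e-05).

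For the other 2 members, mouse 18 went the other way. Mature-tRNA-Leu-CAG stood at 1421, 1384, 561 and 1876 RPM in PANDORA-seq and at 200, 121, 312 and 2595 RPM in traditional-seq. Mature-tRNA-Leu-CAA stood at 696, 737, 319 and 1004 RPM in PANDORA-seq and at 91.9, 58.8, 149 and 1146 RPM in traditional-seq. The traditional-seq library of mouse 18 exceeded its own PANDORA-seq library for both, at 0.723-fold for CAG and 0.875-fold for CAA, and the methods overlapped only through this library for CAA and CAG. The log2 fold change was 1.68 for CAG (SE 0.62, adjusted p = 0.0144) and 1.86 for CAA (SE 0.62, adjusted p = 0.00730). Without mouse 18 they were 2.39 (adjusted p = 4.13e-05) and 2.54 (adjusted p = 2.68e-05). Both calls were lost without mouse 16 (adjusted p = 0.173 and 0.107) or without mouse 15 (adjusted p = 0.111 and 0.0686).

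**Figure D2:**
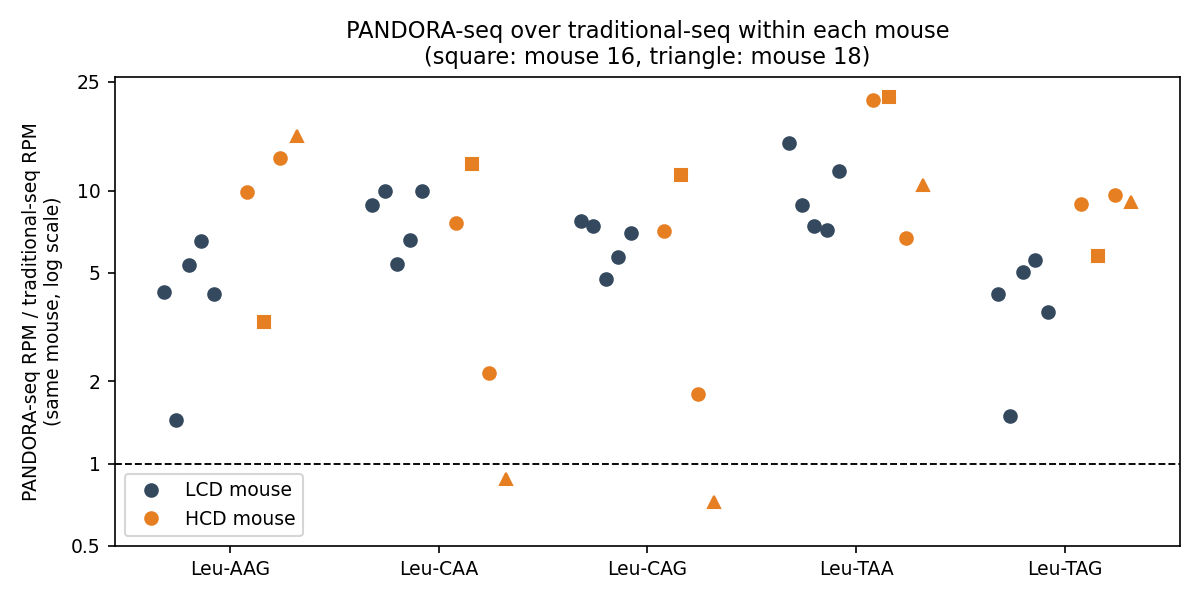
PANDORA-seq RPM divided by traditional-seq RPM of the same mouse (log scale, dashed line at 1), 1 point per mouse, RPM as deposited. Mice 1 to 5 lie between 1.44 and 14.9 over all members. The triangle of mouse 18 falls to 0.875 for CAA and 0.723 for CAG while it stands at 15.8 for AAG. With cytosolic tRNA reads set to the same sum, the HCD change turns for CAA, CAG and TAG and no member is called higher. With miRNA reads set to the same sum, all 5 changes are larger in both diets.

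To remove library scaling, each member was set against the summed RPM of the other leucine anticodons. In LCD mice the makeup of the family shifted between the methods for 2 of 5 members, where 61.5% of the 39 such ratios of all amino acids were called. Mature-tRNA-Leu-CAA made up 27.6 to 32.7% of the leucine reads in PANDORA-seq and 20.2 to 26.8% in traditional-seq, with no overlap (log2 change of the ratio 0.44, SE 0.12, adjusted p = 0.00931). Mature-tRNA-Leu-TAG went the other way, from 5.22 to 11.6% in traditional-seq and 2.82 to 6.22% in PANDORA-seq (-0.88, SE 0.29, adjusted p = 0.0277). With the mouse as a replicate block, the TAG call was lost (adjusted p = 0.0789) and mature-tRNA-Leu-TAA was called instead (0.50, SE 0.11, adjusted p = 0.0123). The number of leucine ratios called ran from 0 without mouse 5 to 4 without mouse 3. It was 1 without mouse 1 and 1 without mouse 2. Without mouse 4 it was 3. Of all 39 ratios, 20 to 25 were called in these fits. The ratio change of mature-tRNA-Leu-CAG was 0.05 (95% interval -0.23 to 0.33). In HCD mice none of the 5 ratios was called, by adjusted or unadjusted p (0 of 5 each), where 28.2% of 39 were called, and the interval for mature-tRNA-Leu-AAG ran from -1.43 to 4.13.

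**Figure D3:**
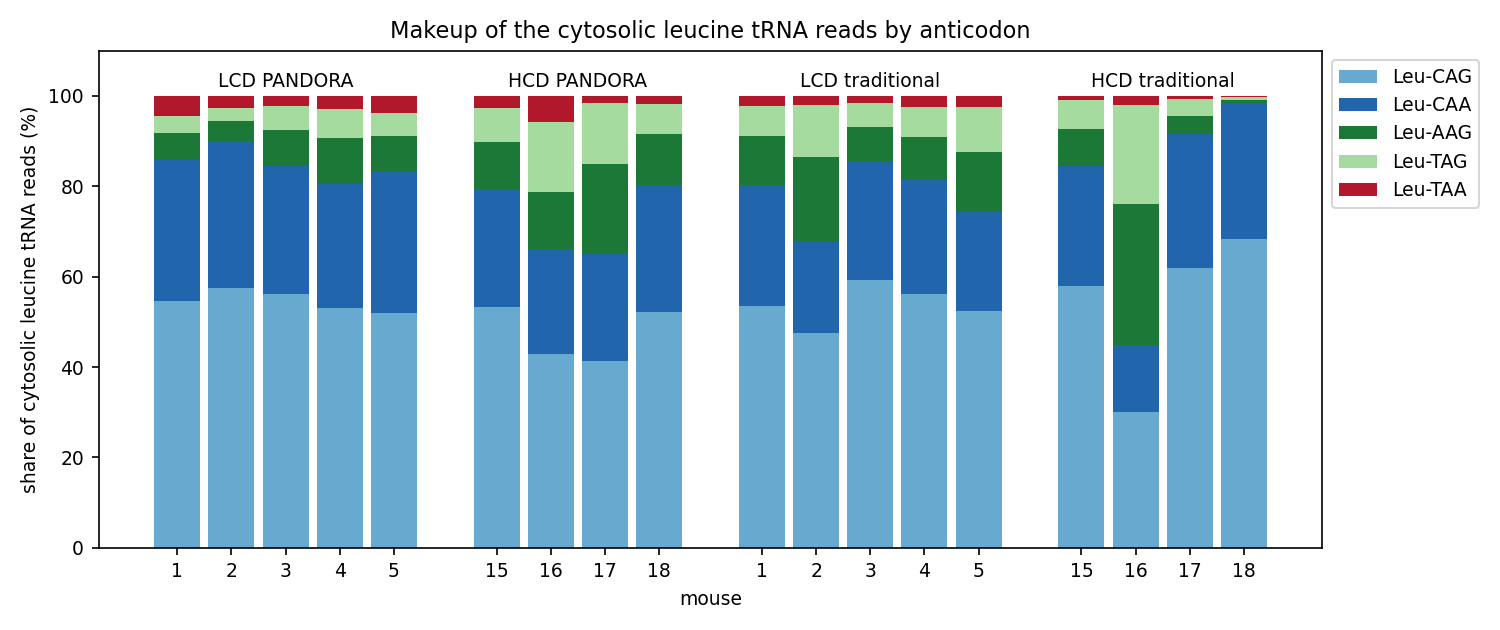
Share of the cytosolic leucine tRNA reads (%) taken by each anticodon in each library, stacked to 100%, by group and mouse. CAG and CAA take most of the reads in every library but that of HCD mouse 16 in traditional-seq, where AAG takes 31.3% and TAG 21.8%; in HCD PANDORA-seq the share of AAG (10.4 to 20.0%) lies above that of LCD PANDORA-seq (4.40 to 10.2%).

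The diet comparison was made within each method, on levels scaled by the trimmed mean of M-values (TMM). In PANDORA-seq none of the 5 members passed the test (limma, 0 of 5 by adjusted and 0 of 5 by unadjusted p), where 23.4% of the 244 rows tested were called in either direction. The whole family summed to 2932 ± 511 RPM (SD, n = 5) in LCD mice and 2710 ± 983 RPM (SD, n = 4) in HCD mice. In bulk liver, fewer cells of a type and less RNA per cell cannot be told apart. Among these libraries the 5 hepatocyte miRNAs summed to 69.9 to 86.7% of miRNA reads in LCD and 83.9 to 92.5% in HCD, and the 5 stellate or fibroblast miRNAs to 0.493 to 2.22% and 0.248 to 1.02%. The part of these differences in the leucine values was not tested.

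The values of the 5 members did not all lie on the same side. Mature-tRNA-Leu-TAG ranged from 75.0 to 180 RPM in LCD and from 182 to 503 RPM in HCD, the only member whose deposited RPM did not overlap, where 20.9% of the 244 rows did not overlap. Its TMM-scaled log2 change was 0.82 (SE 0.47, 95% interval -0.17 to 1.82, adjusted p = 0.225). Mature-tRNA-Leu-AAG had 218 ± 80.5 RPM in LCD and 345 ± 82.3 RPM in HCD (SD, n = 5 and 4), with 0.56 (SE 0.41, 95% interval -0.31 to 1.43, adjusted p = 0.336). Both values are differences that the replicate spread does not separate from 0.

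Mature-tRNA-Leu-CAG and mature-tRNA-Leu-CAA gave values below 0. For CAG, 1599 ± 265 RPM in LCD and 1310 ± 548 RPM in HCD went with a log2 change of -0.56 (SE 0.34, 95% interval -1.28 to 0.16, adjusted p = 0.247). For CAA, 884 ± 155 RPM and 689 ± 282 RPM went with -0.62 (SE 0.33, 95% interval -1.33 to 0.09, adjusted p = 0.202). In both, mouse 17 was the low library of the HCD group, at 561 and 319 RPM. Mature-tRNA-Leu-TAA was spread widest among HCD mice, from 22.4 RPM in mouse 17 to 186 RPM in mouse 16, and its change was -0.58 (SE 0.48, 95% interval -1.62 to 0.45, adjusted p = 0.384). The median change of all 244 rows was -0.12.

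The scaling set these diet values. With the cytosolic tRNA reads set to the same sum, the median row moved to 0.61, and mature-tRNA-Leu-TAG (1.67, adjusted p = 0.00734) and mature-tRNA-Leu-AAG (1.41, adjusted p = 0.00777) were called higher in HCD, as were 34.8% of the 244 rows. With the miRNA reads set to the same sum, the median row moved to -1.27, TAG and AAG stood at -0.70 and -0.97, and CAA (-2.15), CAG (-2.10) and TAA (-2.08) were called lower, as were 46.3% of the rows. Cytosolic tRNA rows took 15.6 to 35.7% of the listed reads in LCD PANDORA-seq and 11.9 to 18.2% in HCD PANDORA-seq, and miRNA rows 2.04 to 5.58% and 7.56 to 15.8%.

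The makeup of the family does not depend on this scaling. Mature-tRNA-Leu-AAG made up 4.40 to 10.2% of the leucine reads in LCD and 10.4 to 20.0% in HCD. Mature-tRNA-Leu-TAG made up 2.82 to 6.22% in LCD and 6.53 to 15.6% in HCD. Neither pair of ranges overlapped, while the shares of CAA (27.6 to 32.7% and 22.9 to 27.9%) and CAG (52 to 57.4% and 41.4 to 53.4%) overlapped narrowly. Of all 39 ratios, 20.5% did not overlap between the diets. In the test of each ratio none of the 5 passed after adjustment over all 39 ratios, of which 10.3% were called. The 5 ratios are parts of the same sum, and CAG with CAA and AAG with TAG moved together. They are thus not separate results. The log2 changes were 1.27 for TAG (SE 0.37, adjusted p = 0.0542), 1.01 for AAG (SE 0.31, adjusted p = 0.0550), -0.37 for CAA (SE 0.11, adjusted p = 0.0542), -0.42 for CAG (SE 0.16, adjusted p = 0.107) and -0.23 for TAA (SE 0.39, adjusted p = 0.728). Without mouse 4, 3 of them passed (AAG, CAA and TAG, each adjusted p = 0.0409), and without mouse 18, 2 passed (CAA and TAG, each adjusted p = 0.0386), where 20.5% of the 39 ratios passed in either case. The summed CAG and CAA reads were 4.91 to 12.5 times the summed AAG and TAG reads in LCD and 1.95 to 4.48 times in HCD, given here as a description.

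**Figure D4:**
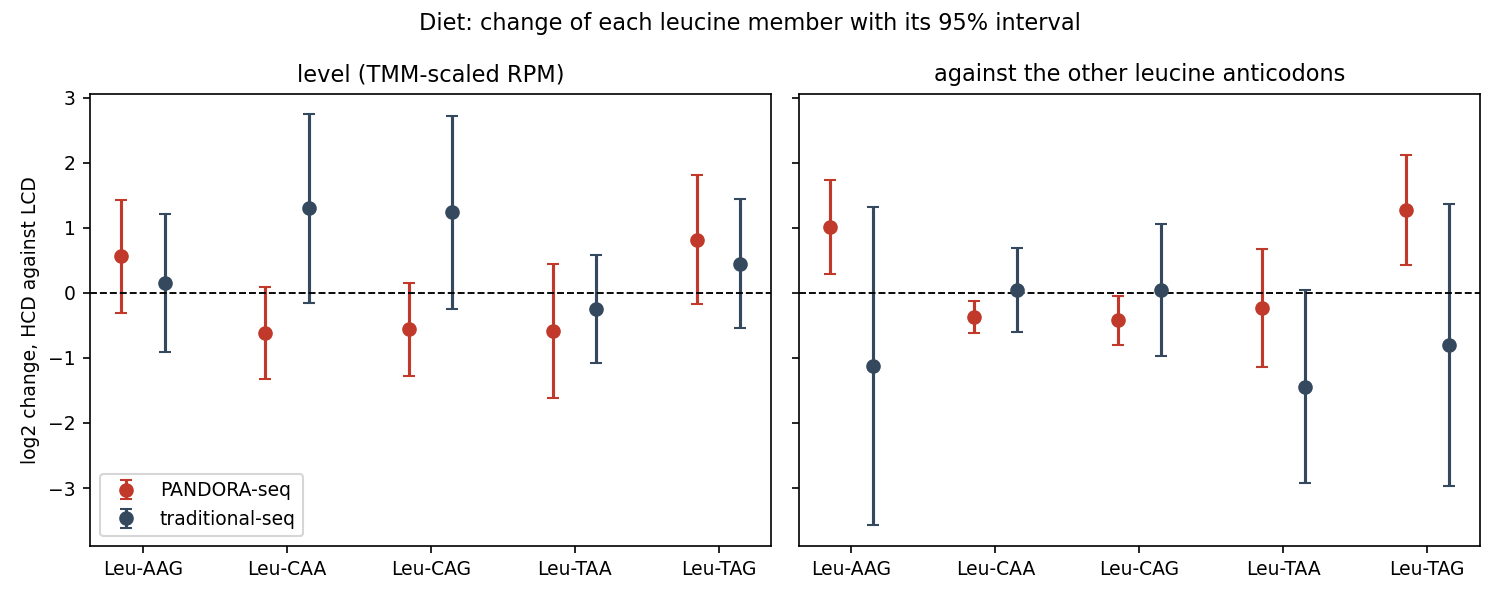
Log2 change of HCD against LCD for each leucine member with its 95% interval, in PANDORA-seq and traditional-seq, as a TMM-scaled level (left) and against the other leucine anticodons (right). All intervals of the levels include 0, and the sign of a level depends on the scaling. On the right the PANDORA-seq intervals of AAG, CAA, CAG and TAG leave 0 before adjustment, and none passed after it. These ratios are parts of the same sum, so they are not separate results.

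In traditional-seq none of the 5 levels passed either (limma, 0 of 5 by adjusted and 0 of 5 by unadjusted p), where 9.74% of the 349 rows tested were called. Mature-tRNA-Leu-CAG had 258 ± 89.4 RPM in LCD and 807 ± 1194 RPM in HCD (SD, n = 5 and 4), with a log2 change of 1.24 (SE 0.69, 95% interval -0.24 to 2.72, adjusted p = 0.320). Mature-tRNA-Leu-CAA had 115 ± 38.1 and 361 ± 525 RPM, with 1.30 (SE 0.68, 95% interval -0.16 to 2.75, adjusted p = 0.282). Both HCD means rest on mouse 18. Without it the HCD means were 211 ± 96.0 RPM for CAG and 99.9 ± 45.6 RPM for CAA (SD, n = 3), and the log2 changes were 0.33 (adjusted p = 0.703) and 0.41 (adjusted p = 0.647). Mouse 16 was the high HCD library for AAG and TAG, whose changes were 0.15 (SE 0.49, adjusted p = 0.937) and 0.45 (SE 0.47, adjusted p = 0.645), and without mouse 16 they were -0.55 (adjusted p = 0.228) and -0.15 (adjusted p = 0.800). Mature-tRNA-Leu-TAA had 9.63 ± 1.89 RPM in LCD and 5.45 ± 2.50 RPM in HCD (SD, n = 5 and 4), with a log2 change of -0.24 (SE 0.39, 95% interval -1.08 to 0.59, adjusted p = 0.782).

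In traditional-seq the leucine rows took a larger part of the cytosolic tRNA reads in HCD mice than in LCD mice. Cytosolic tRNA rows summed to 59775 to 77081 RPM in LCD mice and to 6202 to 21396 RPM in HCD mice. The leucine rows summed to 314 to 679 RPM in LCD mice and to 346, 401, 503 and 3800 RPM in HCD mice 15 to 18. The leucine part of the cytosolic tRNA reads thus was 0.496 to 1.0% in LCD and 2.72, 1.88, 8.11 and 20.3% in HCD, with no overlap, as a description of a sum over the members. With the cytosolic tRNA reads set to the same sum, all 5 members were called higher in HCD, from 1.27 for TAA (adjusted p = 0.00417) to 2.99 for CAA (adjusted p = 0.00126). At that scaling the median of all 349 rows moved from 0.06 to 1.55 and 77.4% of them were called higher. The median of the cytosolic tRNA rows stood at 1.53 there, so a higher part was not particular to the leucine rows. In PANDORA-seq the leucine part was 0.947 to 2.13% in LCD and 1.32 to 3.17% in HCD, and the ranges overlapped. Among the traditional-seq ratios to the other leucine anticodons, none of 5 was called by adjusted or unadjusted p, where 28.9% of 38 were called.

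Whether the diet values differ between the methods was tested as an interaction over all 18 libraries, where 5.48% of the 365 rows tested were called. None of the 5 members passed (limma, 0 of 5 by adjusted and 0 of 5 by unadjusted p). The diet change in PANDORA-seq minus that in traditional-seq was -1.35 for CAA (SE 0.79, adjusted p = 0.328), -1.24 for CAG (SE 0.81, adjusted p = 0.397), 0.96 for AAG (SE 0.74, adjusted p = 0.470), 0.93 for TAG (SE 0.73, adjusted p = 0.487) and 0.14 for TAA (SE 0.63, adjusted p = 0.948). With the cytosolic tRNA reads set to the same sum, CAA (-2.77, adjusted p = 0.0130) and CAG (-2.66, adjusted p = 0.0158) were called lower, as were 40.8% of the 365 rows.

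The 5 members fell into pairs that moved together from library to library. Over the 18 libraries, with each group's mean removed on the log2 scale, mature-tRNA-Leu-CAA and mature-tRNA-Leu-CAG had a Pearson r of 1.0, and 0.99 without the traditional-seq library of mouse 18. CAG stood at 1.67 to 2.04 times CAA in the 9 PANDORA-seq libraries and at 2.0 to 2.38 times CAA in the 9 traditional-seq libraries. Mature-tRNA-Leu-AAG and mature-tRNA-Leu-TAG had an r of 0.94 with and without that library, and AAG stood at 0.827 to 1.77 times TAG, below 1 in the PANDORA-seq library of mouse 16 only. Between the pairs, r was -0.26 for AAG with CAG and -0.15 for CAA with TAG. Mature-tRNA-Leu-TAA lay nearer to TAG (0.61) than to CAG (0.30) or CAA (0.30). These values describe 18 libraries, of which the 2 of each mouse share their RNA. Divided reads could enter both rows of a pair, which was not tested, since sequences of the CAG and TAG genes were not used.

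Among the 219 rows with a mean of at least 10 RPM, the row most like CAA was CAG and the reverse, and the row most like AAG was TAG and the reverse. The next rows for AAG were mature-tRNA-Gly-TCC (r = 0.81) and mature-tRNA-Arg-CCT (0.79). For CAG they were the 2 precursor rows of miR-128 (0.83 each), which fell to 0.42 and 0.41 without the traditional-seq library of mouse 18. For mature-tRNA-Leu-TAA the most similar rows were 4.5S-rRNA (0.74), 12S-rRNA (0.70) and mature-mt_tRNA-Lys-TTT (0.68), none of them a cytosolic tRNA.

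**Figure D5:**
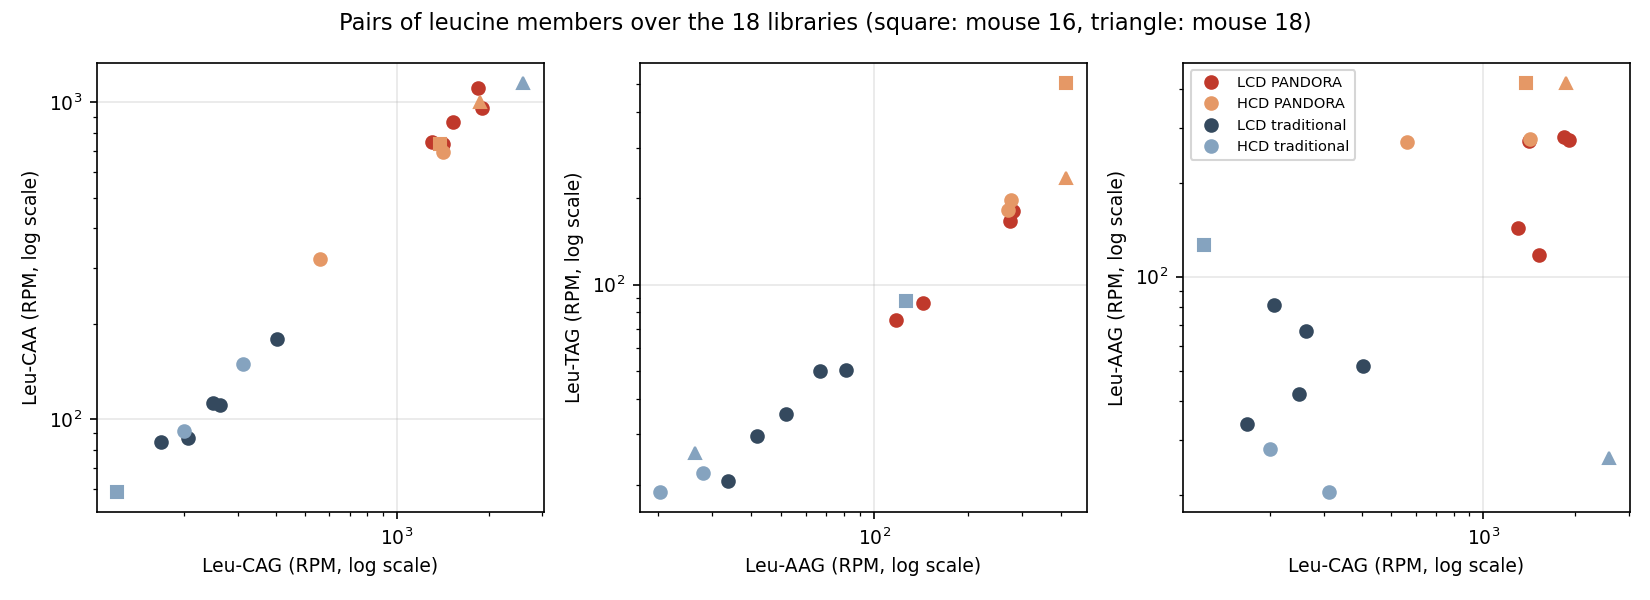
RPM of 1 leucine member against another over the 18 libraries (both axes log scale), coloured by group. CAG and CAA lie on a line over all libraries (r = 1.0 within groups), as do AAG and TAG with mouse 16 above it in PANDORA-seq (0.94), while CAG and AAG part, most of all in the traditional-seq library of mouse 18.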

How the data were processed

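The deposited table gives, for 9 livers and 18 libraries, 1 value per RNA row in RPM (reads scaled to a common library total); the authors mapped trimmed reads to mm10 small RNA references with SPORTS 1.1, allowing 1 mismatch, and divided by library size. Empty cells (11673) were read as 0. Counts could not be recovered, since 67.6 to 81.5% of values under 3 RPM were whole reads (tolerance 0.02), so the count test of the study's methods was replaced by limma 3.58.1 (R 4.3.3) on log2(RPM + 1), with a mean-variance trend, over rows of at least 1 RPM in as many libraries as the smaller group, and Benjamini-Hochberg adjustment over all rows tested. A fold on this scale understates the change of low rows. Method comparisons used RPM as deposited, diet comparisons TMM scaling (30% and 5% trims). Isoacceptor ratios were log2((RPM + 1)/(RPM of the other anticodons of the amino acid + 1)). The code was tested on simulated data.

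The named rows are the 5 members and, for each, the 3 rows with the highest r. Members, lists and comparisons were chosen with earlier results of these data known. Mice are separate animals, and the 2 libraries of a mouse come from the same eluted RNA. Their deviations from the group means correlated at 0.0858 to 0.397 over rows. For 5 of the 9 mice, the PANDORA-seq library correlated best with the traditional-seq library of the same mouse. No libraries held identical values. The fits carry no mouse term, so the method and interaction fits do not use the pairing of the 2 libraries of a mouse. For small RNAs the study's methods describe a test between the LCD and HCD groups. Alternatives added a replicate block and changed the scaling, pseudocount, filter and mice. For figures matplotlib 3.10.9 was used. The rows listed sum to 777471 to 958480 RPM per library. Sequences of the CAG and TAG genes were not used here.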

Additional observations from a re-analysis of the deposited data

Results flagged for a closer look

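In 20 groups of 4 or 5 libraries, 4 per member, the highest and lowest library were each set against the others, and 5 values stood apart by more than Dixon's 95% limit; chance gives about 1 in 20 groups. The 5 values come from 3 HCD libraries, and CAG with CAA and AAG with TAG move together, so they are not 5 separate findings. In traditional-seq, mouse 18 stood apart for mature-tRNA-Leu-CAG (2595 RPM, others 121 to 312) and mature-tRNA-Leu-CAA (1146 RPM, others 58.8 to 149). Mouse 16 stood apart in traditional-seq for mature-tRNA-Leu-AAG (126 RPM, others 20.4 to 28.0) and mature-tRNA-Leu-TAG (87.5 RPM, others 18.9 to 25.8), and in PANDORA-seq for mature-tRNA-Leu-TAG (503 RPM, others 182 to 235).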

How the results depend on the processing

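Scaling moved the results most. With cytosolic tRNA reads set to the same sum, members called were 3 (PANDORA-seq against traditional-seq, LCD), 1 (HCD, CAG lower in PANDORA-seq, none higher), 2 (diet, PANDORA-seq), 5 (diet, traditional-seq) and 2 (interaction); with miRNA reads set to the same sum, 3 for diet in PANDORA-seq. Without a filter, 3 members were called for the methods in HCD. The cause of these shifts was not tested, beyond the scaling's own construction. Rows called higher and lower were 71 and 229 (LCD methods), 135 and 57 by miRNA reads and 37 and 250 by tRNA reads; 57 and 192 (HCD methods), 120 and 80, and 14 and 272; 19 and 38 (diet, PANDORA-seq), 29 and 28 with deposited RPM, 0 and 113 by miRNA reads and 85 and 9 by tRNA reads; 12 and 22 (diet, traditional-seq), 3 and 57, 3 and 49, and 270 and 6; 10 and 10 (interaction), 43 and 10, 0 and 13, and 2 and 149. For the LCD methods, TMM gave 89 and 213, and for the HCD methods 73 and 170.

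Signs changed, by tRNA reads, for CAA (-1.31), CAG (-1.50) and TAG (-0.14) between methods in HCD, for CAA (0.23), CAG (0.29) and TAA (0.26) by diet in PANDORA-seq, for TAA (1.27) by diet in traditional-seq, and in the interaction for AAG (-0.44), TAA (-1.10) and TAG (-0.48). By miRNA reads they changed for AAG (-0.97) and TAG (-0.70) by diet in PANDORA-seq, AAG (-0.52) and TAG (-0.21) in traditional-seq, and AAG (-0.51), TAA (-1.55) and TAG (-0.53) in the interaction. With deposited RPM, AAG (-0.48) and TAG (-0.17) changed sign by diet in traditional-seq, as did AAG (-0.08) with all 18 libraries in 1 fit. A pseudocount of 10 turned TAA (-0.08) in the interaction and the ratios of TAA between methods in LCD (-0.23) and CAA in HCD (-0.03).

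Leaving out 1 mouse at a time gave 5 to 5 members called for the methods in LCD, 3 to 5 in HCD, and 0 to 0 for both diet comparisons and the interaction. Ratios called were 0 to 4 (methods, LCD), 0 to 0 (methods, HCD), 0 to 3 (diet, PANDORA-seq, 3 without mouse 4) and 0 to 1 (diet, traditional-seq, TAA without mouse 16, adjusted p = 0.0437). Values that crossed 0 were AAG (-0.55 to 0.32) and TAG (-0.15 to 0.65) by diet in traditional-seq, TAA in the interaction (-0.39 to 0.51), and the ratios of CAG (-0.08 to 0.11, methods, LCD), CAA (-0.22 to 0.19, methods, HCD), and CAA (-0.09 to 0.35), CAG (-0.24 to 0.54) and TAG (-1.64 to 0.13) by diet in traditional-seq. With the mouse as a replicate block, members called were 5 in LCD, 5 in HCD and 0 in the interaction, and beside the LCD ratios of TAA and TAG it changed no other call. Diet could not be blocked, since each mouse had 1 diet.

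Counting error is largest for mature-tRNA-Leu-TAA, at 13.8 reads in its thinnest library, and 5 against 4 mice cannot resolve changes under the intervals given.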

Other observations

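These rows were chosen after their values were seen. In the traditional-seq library of HCD mouse 18, set against the median of the other 3 libraries of its group, mature-tRNA-Leu-CAG ranked 1 and mature-tRNA-Leu-CAA ranked 2 of 219 rows, at 12.9-fold and 12.4-fold. The rows that followed were the precursor rows of miR-674 (7.68-fold), miR-671 (7.05-fold) and miR-125a (6.46-fold). The serine rows, another long-arm family, were 1.73-fold to 3.49-fold higher there for the 4 rows among the 219, while mature-tRNA-Leu-TAG (1.16-fold) and mature-tRNA-Leu-AAG (0.940-fold) stood near their group. In that library the hepatocyte miRNAs took 79.5% of miRNA reads, within the range of its group, and rRNA rows took 32.9% of listed reads, the highest of the group. In the PANDORA-seq library of HCD mouse 16, mature-tRNA-Leu-TAA (2.69-fold) and mature-tRNA-Leu-TAG (2.55-fold) ranked 5 and 6 of 154 rows, below 12S-rRNA (3.37-fold).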
